A study of Mus musculus with 36 samples.

Results

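Plk1, Aurka, Aurkb, Birc5, Cdc20, Ube2c, Hmmr, Ckap2l, Cep55 and Racgap1 encode kinases and partner proteins of mitosis, of the anaphase-promoting complex (APC) and of cytokinesis. They were chosen by gene symbol, with earlier results of these data known, so their shares beside all genes are descriptions. All 10 were found among the 17716 genes listed in both count tables, one of 18116 genes in female mice and one of 18291 genes in male mice. All 10 also passed the filter on low counts in each of the comparisons.

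The left lung of 36 wild-type C57BL/6 mice was sequenced, with 3 female and 3 male mice in each of 6 groups. The groups received saline (the vehicle, as control), MC252 crude oil, the dispersant Corexit 9500, the dispersant Corexit 9527, 9500+oil or 9527+oil. Dosing began at an age of 8 weeks, each preparation was given at a 0.1 dilution on days 0, 7 and 13, and lungs were taken on day 14. The route is oropharyngeal aspiration in the methods and intratracheal instillation in the labels, and the preparation is a saline-accommodated fraction (SAF) in the former and WAF in the latter. Each library was made from 1 mouse. Female and male mice were treated separately, so a difference between the sexes and a difference between these rounds of treatment cannot be told apart. In whole lung, a change in the number of dividing cells and a change in the RNA of each such cell cannot be told apart either.

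A cell that enters mitosis switches on a set of kinases. Polo-like kinase 1 (Plk1) and Aurora A (Aurka) mature the centrosomes and build the spindle. Aurora B (Aurkb), a member of the chromosomal passenger complex like survivin (Birc5), corrects the attachment of chromosomes to the spindle. The APC, a ubiquitin ligase, is switched on by Cdc20 and works with the ubiquitin-conjugating enzyme Ube2c to mark cyclin B and securin for destruction, which starts anaphase. Hmmr and Ckap2l are spindle proteins, Racgap1 organizes the central spindle and the cleavage furrow, and Cep55 recruits the machinery that cuts the last bridge between the daughter cells. Transcripts of such genes are made mainly in the G2 and M phases, so in the adult lung, where few cells divide, they are scarce.

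Many genes of G2 and M carry a CHR element, with the letters TTTGAA, near the start of transcription, often beside CCAAT boxes. Both motifs were searched on both strands in RefSeq promoters of mouse build GRCm38.p6, which run from 250 bases before to 50 bases after the start. A promoter was found for 9 of the 10 genes, all except Aurkb. The CHR letters stood in the promoters of 8 of these 9 genes, all except Birc5, against 17.89% of all 32851 promoters of the same length. The letters CCAAT stood in those of 7 of the 9 genes, all except Birc5 and Cep55, against 37.41% of all promoters. A match is a description of the letters and was not tested as a binding site. One CHR site of each of the 8 genes is shown to let their surroundings and positions be compared, read 5′ to 3′ on the strand of the gene, with the CHR letters in capitals (TTCAAA where they lie on the opposite strand):
Plk1, chr7:122159453-122159482, plus strand: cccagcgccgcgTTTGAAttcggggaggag
Aurka, chr2:172370521-172370550, minus strand: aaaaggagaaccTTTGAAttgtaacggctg
Cdc20, chr4:118437344-118437373, minus strand: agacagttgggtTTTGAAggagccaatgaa
Ube2c, chr2:164769888-164769917, plus strand: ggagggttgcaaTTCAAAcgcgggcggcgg
Hmmr, chr11:40733412-40733441, minus strand: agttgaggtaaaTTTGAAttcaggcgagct
Ckap2l, chr2:129297225-129297254, minus strand: ttattggcgaatTTCAAAgtcgcggaagcc
Cep55, chr19:38054996-38055025, plus strand: acagccgcgggaTTCAAActcccggaagcg
Racgap1, chr15:99651634-99651663, minus strand: ctggtgcgtgatTTTGAAccggatctggcg

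Counted from the start of transcription, the first base of the site lay at 31 in Plk1, 33 in Aurka, 9 in Hmmr and 6 in Racgap1. It lay at -18 in Cdc20, -29 in Ube2c and -30 in Ckap2l, and at -33 or 25 in Cep55, which has a pair of annotated starts. Hmmr and Ube2c held the most CCAAT boxes of the 9 genes, whereas Cdc20 and Aurka held 2 each and Cep55 none. Stretches upstream of their starts, which end before the gene start in GENCODE, are shown with these boxes in capitals (CCAAT, or ATTGG where they lie on the opposite strand), 5 in the 250 bases of Hmmr, all on the opposite strand, and 6 in the 219 bases of Ube2c, of which a forward and a reverse box overlap:
Hmmr, chr11:40733438-40733687, minus strand: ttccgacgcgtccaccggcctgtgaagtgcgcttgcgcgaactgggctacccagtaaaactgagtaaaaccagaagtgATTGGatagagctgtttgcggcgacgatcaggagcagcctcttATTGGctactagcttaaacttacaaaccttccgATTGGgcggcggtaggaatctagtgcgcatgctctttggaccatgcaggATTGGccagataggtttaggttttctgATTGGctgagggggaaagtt
Ube2c, chr2:164769679-164769897, plus strand: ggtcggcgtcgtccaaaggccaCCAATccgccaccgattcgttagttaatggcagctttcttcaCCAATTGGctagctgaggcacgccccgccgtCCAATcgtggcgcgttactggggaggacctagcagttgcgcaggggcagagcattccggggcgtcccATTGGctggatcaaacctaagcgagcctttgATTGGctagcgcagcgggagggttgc

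Total counts ran from 17501180 to 30011557 per mouse. In 4 female libraries mitochondrial genes took 20.67% to 45.09% of the counts, against 5.27% to 11.34% in the other 32 libraries. These libraries were saline mouse 3, oil mouse 6, Corexit 9527 mouse 11 and 9500+oil mouse 14. They also had few counts on GC-rich genes. The log2 ratio of counts on GC-rich to GC-poor genes, less its median over all 36 libraries, was -4.06 to -2.43. In the other 32 libraries it was -0.82 to 0.33. The genes described here differ in this respect, from a GC content of 41.8% in the longest transcript of Hmmr and 44.4% in that of Cep55 to 55.6% in that of Cdc20 and 56.0% in that of Plk1. For the 10 genes, comparisons of treatments over both sexes are therefore given with and without these 4 libraries. Those of other named genes and of cell type markers are given with them only. For oil, Corexit 9500, 9500+oil and 9527+oil against saline, 0 of 10 genes were called either way, and the medians of the 10 log2 fold changes given below became 0.43, 1.06, 0.37 and 0.13 without them. The surfactant and other markers of alveolar type 2 cells, the cells that make surfactant, summed to between 9324 and 26490 CPM (counts per 1000000 counts of the library, on library sizes scaled by TMM) in every mouse, as the lung label implies.

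The mice treated with either dispersant alone had the highest levels of all 10 genes in both sexes. In male mice the mean of the Corexit 9527 group was the highest of the 6 groups and that of the Corexit 9500 group the second for 10 of 10 genes. In female mice the Corexit 9527 group came first for 7 genes and the Corexit 9500 group for Aurka, Cdc20 and Ube2c, and these groups held the first and second place for all 10. The mean log2 CPM over the 10 genes was 3.48 ± 0.50 (SD, n = 3) in male Corexit 9527 mice, 2.98 ± 0.40 in male Corexit 9500 mice and 2.02 ± 0.19 in male saline mice. It was 3.29 ± 0.39, 3.11 ± 0.58 and 1.85 ± 0.70 in the female mice of the same groups. Female saline mouse 3 and Corexit 9527 mouse 11, both of high mitochondrial share, were the lowest of their groups, at 1.045 and 2.861. The other female mice of these groups were at 2.364 and 2.135 with saline and 3.628 and 3.38 with Corexit 9527. In the plot of these means, oil lay between saline and the dispersants in male mice, and both groups given a dispersant with oil lay lower than the same dispersant alone. Male Corexit 9527 mice 10 and 11 were among the 3 highest of the 18 male mice for 10 of 10 genes, and female Corexit 9500 mouse 9 was among the 3 highest female mice for 10 of 10.

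**Figure D1:**
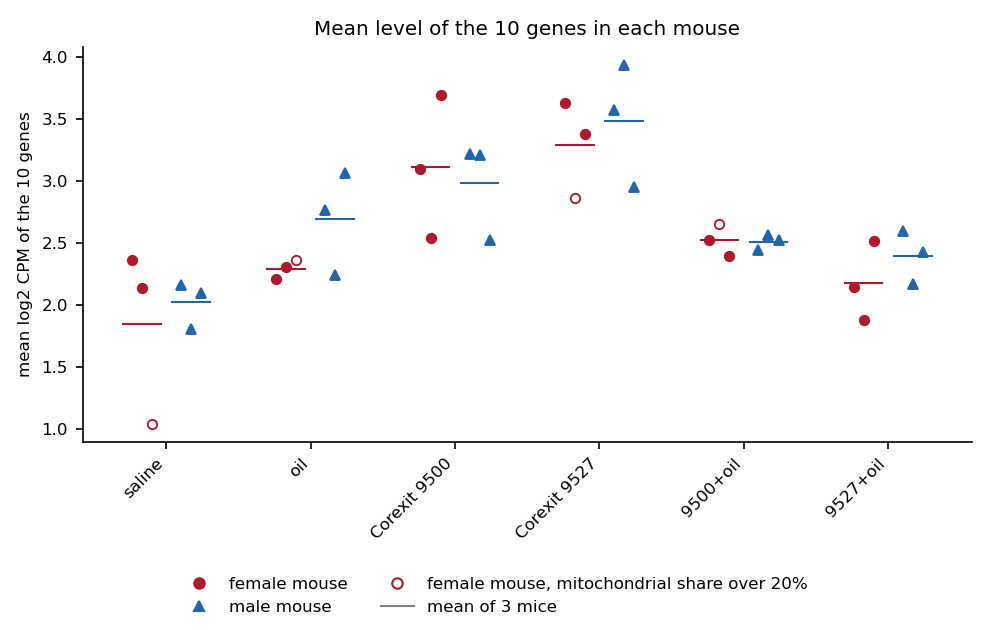
Mean log2 CPM (prior count 2) of the 10 genes in each mouse, by treatment group. Circles are female and triangles male mice, open circles are the 4 female libraries with a mitochondrial share over 20%, and lines are means of 3 mice. The male Corexit 9527 mice sit between 2.95 and 3.93 and the male saline mice between 1.81 and 2.16.

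Per kilobase of their longest transcript, the median level over the 18 female mice ran from 0.967 CPM for Hmmr to 4.27 CPM for Racgap1. Over the 18 male mice it ran from 1.03 CPM for Hmmr to 4.74 CPM for Racgap1. Only these values per kilobase compare levels between genes.

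The first genes to consider are the mitotic kinases and survivin. Plk1 measured 4.87, 2.99 and 4.61 CPM in male saline mice, 9.22, 11.4 and 5.41 CPM in male Corexit 9500 mice and 10.5, 14.5 and 8.79 CPM in male Corexit 9527 mice. In female mice it measured 5.36, 4.24 and 5.98 CPM with saline, 10.8, 6.71 and 12.2 CPM with Corexit 9500 and 12.9, 8.83 and 9.33 CPM with Corexit 9527. In both sexes every mouse given either dispersant was above every saline mouse. The difference between Corexit 9527 and saline was a log2 fold change of 1.44 (SE 0.26) in male mice, with an adjusted p of 0.0607 by edgeR's quasi-likelihood test, and 0.99 (SE 0.48) in female mice. Plk1 was thus not called in either sex by edgeR, whereas DESeq2 called it in male mice.

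Aurka measured 3.18, 3.31 and 3.66 CPM in male saline mice and 6.86, 11.1 and 4.19 CPM in male Corexit 9527 mice, with no overlap. In female mice it measured 3.21, 3.10 and 1.41 CPM with saline and 8.25, 0.852 and 6.71 CPM with Corexit 9527, where the lowest value belonged to mouse 11, one of the libraries with a high mitochondrial share. Aurkb measured 3.53, 2.68 and 3.43 CPM in male saline mice and 7.71, 14.0 and 3.83 CPM in male Corexit 9527 mice. The log2 fold changes of these kinases in male mice were 1.13 (SE 0.34) and 1.41 (SE 0.43), with adjusted p of 0.179 and 0.197 by edgeR. Without Corexit 9527 mouse 11, the highest for both, they were 0.71 and 0.84. In female mice Aurkb and Birc5 had 0 counts in saline mouse 3, which allows a level of up to 0.352 CPM (3 counts, counting error only), and 2.91 to 4.21 CPM in saline mice 1 and 2.

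Birc5, the survivin subunit that places Aurora B on the chromosomes, was 3.93, 3.25 and 5.33 CPM in male saline mice, and 13.7, 17.7 and 7.97 CPM in male Corexit 9527 mice. It was 11.1, 10.8 and 11.7 CPM in female Corexit 9527 mice, a range narrower than that of the female Corexit 9500 mice, at 7.74, 4.74 and 12.0 CPM. Its log2 fold change with Corexit 9527 was 1.65 (SE 0.31) in male mice, with an adjusted p of 0.0695 by edgeR. In female mice the SE of 1.33 on a log2 fold change of 2.07 stands beside the saline library at 0 counts.

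Of the genes acting on the APC, the ubiquitin-conjugating enzyme Ube2c and the co-activator Cdc20 both rose with Corexit 9527 in male mice. Ube2c measured 4.92, 4.46 and 4.02 CPM with saline and 14.0, 15.7 and 11.3 CPM with Corexit 9527, a log2 fold change of 1.62 (SE 0.19) with an adjusted p of 0.0250 by edgeR. Cdc20 measured 4.23, 3.41 and 3.75 CPM with saline and 8.96, 11.2 and 7.76 CPM with Corexit 9527, a log2 fold change of 1.29 (SE 0.22) with an adjusted p of 0.0493 by edgeR. The groups were apart for both genes. In female mice both overlapped saline, with Ube2c at 10.2, 4.8 and 3.17 CPM with saline and 15.4, 7.45 and 13.7 CPM with Corexit 9527. Cdc20 measured 5.28, 4.49 and 1.64 CPM with saline and 11.8, 0.852 and 7.19 CPM with Corexit 9527 in female mice. The lowest value of each of these female groups came from a library with a high mitochondrial share.

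Both spindle genes rose with Corexit 9527 in male mice. Hmmr measured 2.83, 2.36 and 2.71 CPM with saline and 12.6, 12.3 and 6.98 CPM with Corexit 9527, which was the largest change of the 10 genes, at a log2 fold change of 2.01 (SE 0.27) and an adjusted p of 0.0324 by edgeR. Ckap2l measured 5.07, 3.73 and 5.33 CPM with saline and 16.6, 20.8 and 12.6 CPM with Corexit 9527, a log2 fold change of 1.82 (SE 0.23) with an adjusted p of 0.0288 by edgeR. In female mice Hmmr measured 3.33, 2.88 and 4.8 CPM with saline and 9.53, 18.1 and 10.4 CPM with Corexit 9527, without overlap. Ckap2l overlapped there, at 10.6, 6.35 and 19.1 CPM with saline and 13.4, 31.9 and 14.1 CPM with Corexit 9527. For both transcripts the libraries with a high mitochondrial share, saline mouse 3 and Corexit 9527 mouse 11, were the highest of their groups, the opposite end from Cdc20. Plk1 was highest in saline mouse 3 and lowest in Corexit 9527 mouse 11 of their groups. The part of GC content in these levels was not tested.

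Of the cytokinesis genes, Cep55 rose with Corexit 9527 in male mice, and Racgap1 had a log2 fold change of 1.07 (SE 0.33) and an adjusted p of 0.213 by edgeR, though DESeq2 called it. Cep55 measured 2.83, 1.94 and 2.30 CPM with saline and 9.56, 11.5 and 5.84 CPM with Corexit 9527, a log2 fold change of 1.93 (SE 0.30) with an adjusted p of 0.0482 by edgeR. In female mice it measured 3.04, 3.16 and 3.75 CPM with saline and 9.94, 9.69 and 9.03 CPM with Corexit 9527. The groups were well apart, and the library of Corexit 9527 mouse 11 did not stand out. Racgap1 measured 14.2, 9.39 and 10.7 CPM in male saline mice and 27.4, 31.6 and 13.0 CPM in male Corexit 9527 mice, so that mouse 12 lay within the saline range. In female mice Racgap1 was 9.62, 10.8 and 10.2 CPM with saline and 26.7, 15.8 and 23.7 CPM with Corexit 9527, without overlap.

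**Figure D2:**
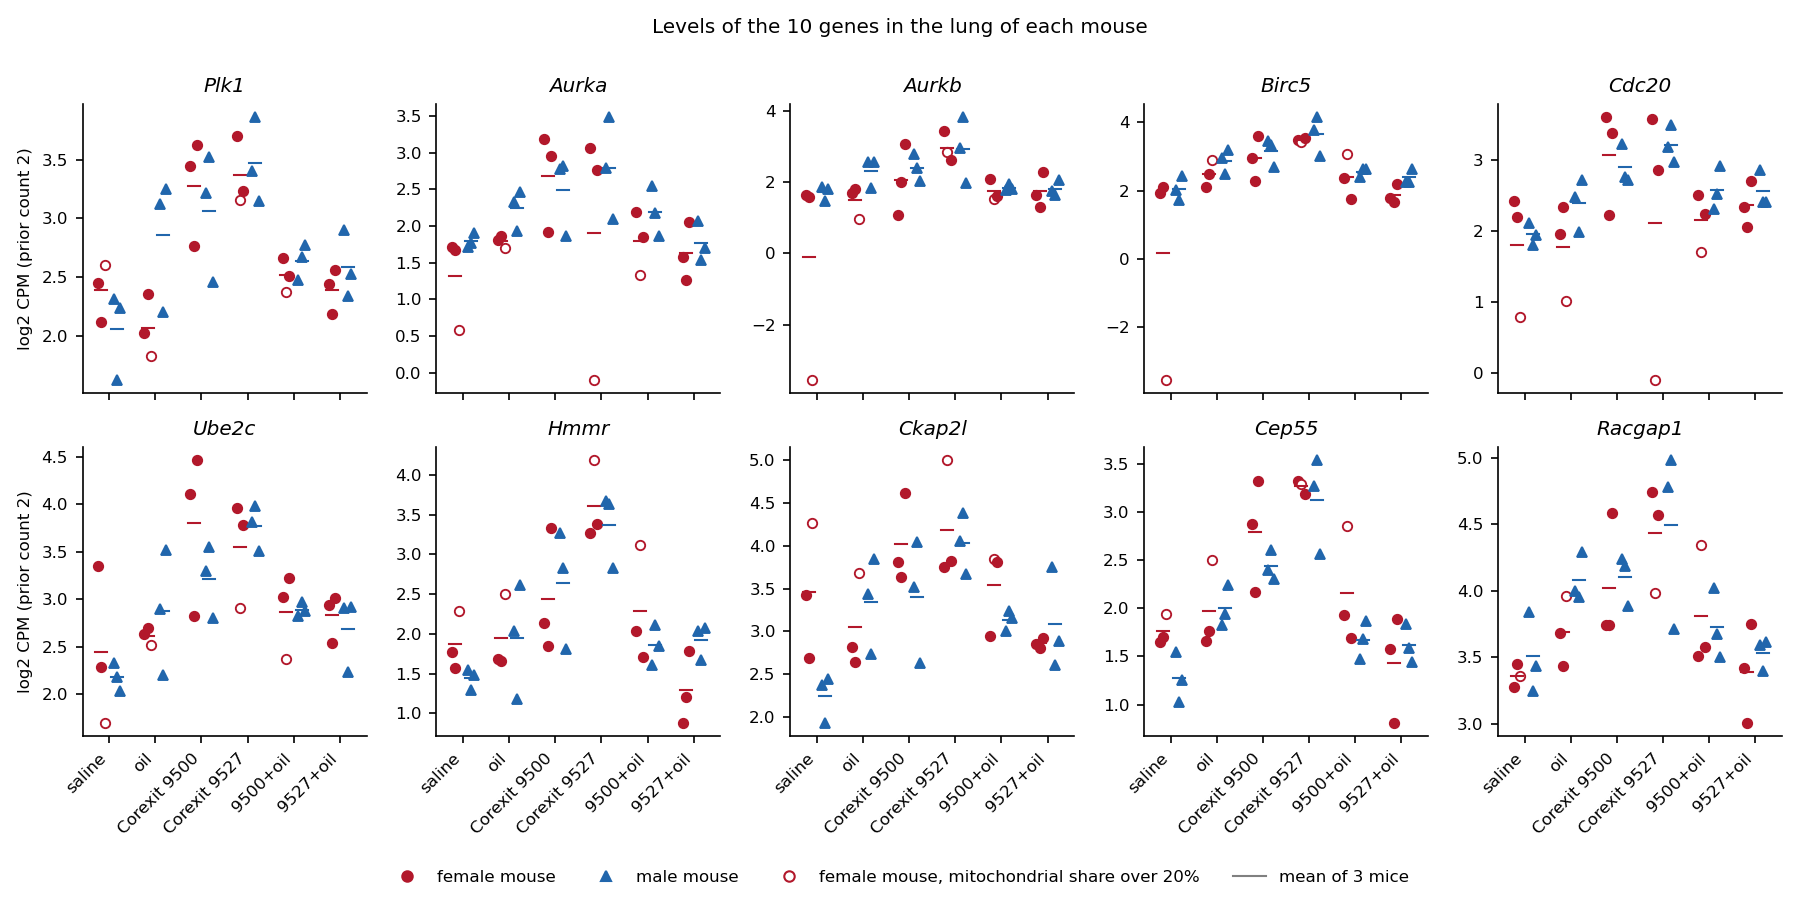
Level of each of the 10 genes (log2 CPM, prior count 2) in every mouse, by treatment group, with circles for female and triangles for male mice and lines for means of 3 mice. Open circles are the 4 female libraries with a mitochondrial share over 20%, which include the lowest values of Aurkb and Birc5 (0 counts) and the highest of Hmmr and Ckap2l (18.1 and 31.9 CPM). Each panel has its own scale.

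Counted together, 5 of the 10 genes rose with Corexit 9527 in male mice at an adjusted p under 0.05, where 58 of 14919 genes (0.389%) were called in either direction and 49 (0.328%) were higher. At an unadjusted p under 0.05, 10 of 10 were higher, against 7.97% of all genes. Every Corexit 9527 mouse was above every saline mouse for 9 of the 10 genes, against 10.7% of all genes. The median log2 fold change of the 10 genes was 1.53, and that of all genes tested was -0.01. DESeq2 called 9 of the 10 and limma's voom 7. This count changed with single mice. It was 0 without any one of the saline mice or without Corexit 9527 mouse 10, 2 without mouse 11 and 10 without mouse 12, the mouse with the lowest levels of that group.

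In female mice 0 of 10 genes passed with Corexit 9527 by edgeR, DESeq2 or voom, as 0 of 15004 genes did by edgeR (0%). Without adjustment, Hmmr, Cep55 and Racgap1 were higher at a p under 0.05, against 0.233% of all genes. The Corexit 9527 and saline mice did not overlap for 6 of the 10 genes, against 2.85% of all genes. The median log2 fold change was 1.07, and it was 1.28 without the libraries of saline mouse 3 and Corexit 9527 mouse 11, where 0 genes passed either.

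Over both sexes, Hmmr and Cep55 were nearest to the threshold with Corexit 9527, at log2 fold changes of 1.89 (SE 0.27) and 1.72 (SE 0.24) and an adjusted p of 0.0522 each by edgeR. The count of called genes was 0 of 10, beside 2 of 15328 (0.013%), and 9 of 10 were higher at an unadjusted p under 0.05, against 2.24% of all genes. Without the 4 libraries of high mitochondrial share, 10 of 10 genes were called, all higher, where 376 of 15531 genes (2.42%) were called. Voom with weights for the quality of each library also called 10, DESeq2 called 5, and a fit without edgeR's robust option, chosen after seeing the data, called Hmmr and Cep55. The count was 3 without female saline mouse 3 and 2 without male Corexit 9527 mouse 12. The median log2 fold change moved less, from 1.29 to 1.36 when the 4 libraries were left out.

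With Corexit 9500 the mean levels in male mice lay between those of saline and Corexit 9527 for all 10 genes. There, 10 of 10 exceeded saline at an unadjusted p under 0.05, against 3.92% of all genes, and 9 did not overlap saline, against 6.39%. The adjusted p was under 0.05 for 0 of 10, beside 1 of 15116 genes (0.00662%), with 5 called by DESeq2 and 0 by voom. Without male Corexit 9500 mouse 9, the lowest of that group, Ube2c, Hmmr and Ckap2l were called. In female mice 0 of 10 passed by any of the 3 tools, as 0% of all genes did by edgeR. There 0 were under an unadjusted p of 0.05, and 5 did not overlap saline, against 3.56% of all genes. The female median log2 fold change was 1.17, and 0.79 to 1.37 over 15 alternative fits. Over both sexes 0 of 10 passed by edgeR (0% of all genes), 9 exceeded saline with an unadjusted p under 0.05, against 1.25%, and DESeq2 called Cep55 alone. The log2 fold changes had a median of 1.04 and ran from 0.65 (SE 0.20) for Racgap1 to 1.35 (SE 0.60) for Birc5. Without the 4 libraries they ran from 0.65 for Racgap1 to 1.20 for Cep55, with Birc5 at 1.09.

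**Figure D3:**
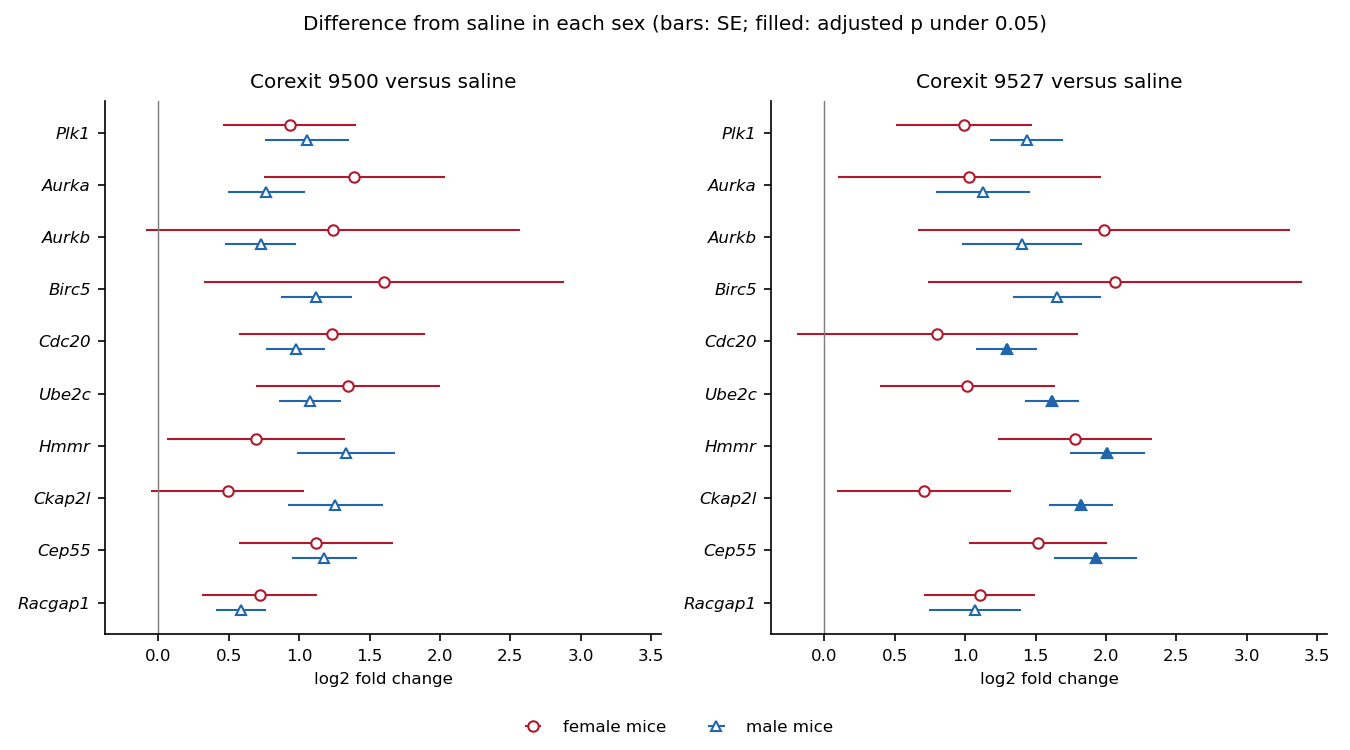
Log2 fold change of each gene against saline with Corexit 9500 (left) and Corexit 9527 (right), in female (circles) and male (triangles) mice, 3 treated and 3 saline mice each, with SE bars. Filled symbols are calls at an adjusted p under 0.05, which were Cdc20, Ube2c, Hmmr, Ckap2l and Cep55 with Corexit 9527 in male mice.

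The dispersants themselves were compared over both sexes. Against Corexit 9500, Corexit 9527 gave a higher fitted level for 9 of the 10 genes, with a median log2 difference of 0.41, but 0 of 10 passed by edgeR (0% of all genes), DESeq2 or voom. At an unadjusted p under 0.05, Hmmr and Cep55 were higher, against 2.08% of all genes. Their log2 differences were 0.88, with a 95% interval from 0.21 to 1.55, and 0.57, from 0.11 to 1.03. For Aurka and Cdc20 the differences were 0.00 and -0.05, with intervals from -0.90 to 0.90 and from -0.95 to 0.85. Both genes were at 0.852 CPM in female Corexit 9527 mouse 11, and without the 4 libraries their differences were 0.26 and 0.21, all 10 genes had a higher fitted level with Corexit 9527, the median was 0.39 and 0 were called.

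Adding oil to Corexit 9527 went with lower fitted levels of all 10 genes. Hmmr measured 4.00, 3.08 and 4.11 CPM in male and 1.75, 2.22 and 3.36 CPM in female 9527+oil mice, against 6.98 to 12.6 CPM and 9.53 to 18.1 CPM with Corexit 9527 alone. Cep55 measured 3.48, 2.92 and 2.62 CPM in male and 2.89, 1.67 and 3.63 CPM in female 9527+oil mice. Birc5 measured 4.70, 4.73 and 6.14 CPM in male and 3.38, 3.08 and 4.52 CPM in female 9527+oil mice. In each sex every 9527+oil mouse was below every Corexit 9527 mouse for these 3 genes and for Plk1 and Racgap1, that is for 5 of the 10 genes, against 3.37% of all genes.

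In edgeR's test over both sexes, 4 of the 10 genes fell. The log2 fold change of 9527+oil against Corexit 9527 was -1.93 (SE 0.28) for Hmmr, with an adjusted p of 0.0284. It was -1.68 (SE 0.23) for Cep55, with an adjusted p of 0.0223, and -1.46 (SE 0.21) for Birc5, with an adjusted p of 0.0233. Plk1 had -0.94 (SE 0.18) and an adjusted p of 0.0487. In the same test 83 of 15396 genes (0.539%) were called in either direction and 77 (0.5%) were lower. At an unadjusted p under 0.05, 9 of the 10 were lower, all except Cdc20, against 8.59% of all genes. DESeq2 called 8 of the 10 and voom 10, and without female Corexit 9527 mouse 11, the only library of high mitochondrial share in these groups, 10 were called, where 1059 of 15660 genes (6.76%) were.

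The number called was sensitive to single mice. Besides the 10 without female Corexit 9527 mouse 11, it was 4 without male Corexit 9527 mouse 12, 1 without female 9527+oil mouse 17 and 0 without any one of the other 9 mice. The median log2 fold change of the 10 genes was -1.11 and stayed between -1.22 and -0.97 over all 22 alternative fits.

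**Figure D4:**
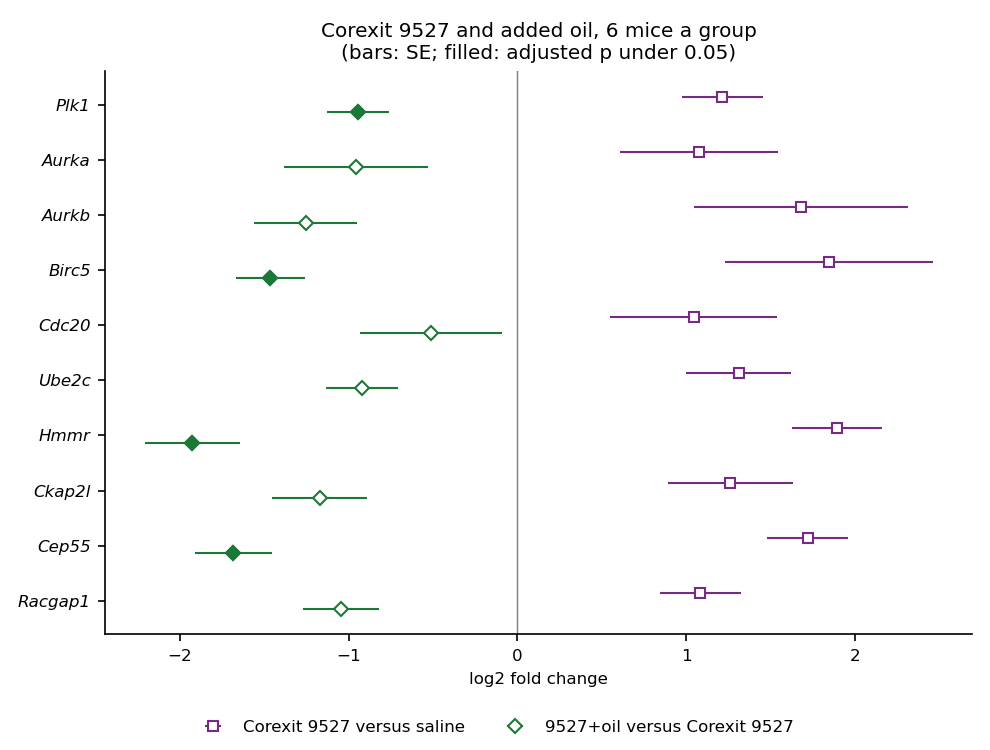
Log2 fold change of each gene for Corexit 9527 against saline (squares) and for 9527+oil against Corexit 9527 (diamonds), over both sexes with 6 mice a group and SE bars. Filled symbols are calls by the same threshold, which were Plk1, Birc5, Hmmr and Cep55 in the second comparison. The comparisons share the Corexit 9527 mice, so their opposite directions are not independent.

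The 9527+oil mice were also compared with saline, in the same saline mice as the other groups. Over both sexes the median log2 fold change of the 10 genes was 0.19, and 0 of 10 passed by edgeR (0% of all genes), DESeq2 or voom, with 0 under an unadjusted p of 0.05. In female mice the median was 0.14, and -0.04 without saline mouse 3, with 0 of 10 by each tool (0% of all genes by edgeR) and 0 at an unadjusted p under 0.05. In male mice it was 0.42, with 0 of 10 by each tool beside 0.00669% of all genes by edgeR, and 2 were higher at an unadjusted p under 0.05, against 3.36% of all genes. Among the male 9527+oil mice, Ckap2l ran from 6.00 to 13.4 CPM, the widest spread of the 10 genes there in CPM, and the highest value came from mouse 16.

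The same order held for Corexit 9500, with smaller differences. All 10 genes had a lower fitted level with 9500+oil than with Corexit 9500 alone, with a median log2 fold change of -0.62, from -0.71 for Cep55 to -0.29 for Racgap1. Without 9500+oil mouse 14, the library of high mitochondrial share there, the median was -0.55 and 0 were called. The count at an adjusted p under 0.05 was 0 of 10 by edgeR (0% of all genes), DESeq2 and voom. Without adjustment, 6 of 10 were lower at a p under 0.05, against 1.38% of all genes. Against saline, the median with 9500+oil was 0.45 over both sexes, with 0 of 10 called by each tool (0% by edgeR) and 0 at an unadjusted p under 0.05. In female mice it was 0.42, and 0.22 without saline mouse 3 and 9500+oil mouse 14, again with 0 of 10 by each tool (0%) and 0 unadjusted. In male mice it was 0.45, with 0 of 10 by each tool (0% by edgeR) and 4 higher at an unadjusted p under 0.05, against 5.17% of all genes.

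Oil alone was compared last. In male mice Ckap2l measured 10.8, 6.59 and 14.3 CPM with oil, against 3.73 to 5.33 CPM with saline, a log2 fold change of 1.16 (SE 0.28). Birc5 measured 7.62, 5.53 and 8.98 CPM with oil, against 3.25 to 5.33 CPM, a log2 fold change of 0.82 (SE 0.26). The groups did not overlap for either gene. In this sex 7 of the 10 were higher by the unadjusted p, against 5.68% of all genes, and 0 of 10 passed the adjusted p by edgeR or voom, beside 0.00671% of all genes by edgeR, with 1 by DESeq2. In female mice the median log2 fold change was 0.12, and 0.02 without saline mouse 3 and oil mouse 6, and 0 of 10 passed by each tool (0% by edgeR), with 0 at an unadjusted p under 0.05. Over both sexes the median was 0.40, 0 of 10 passed by each tool (0% by edgeR), and Racgap1 was higher at an unadjusted p under 0.05, against 0.267% of all genes.

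Whether a treatment acted differently in male and female mice was tested with interaction terms. The number of the 10 genes called was 0 for oil (0% of all genes), 0 for Corexit 9500 (0%), 0 for Corexit 9527 (0%), 0 for 9500+oil (0%) and 0 for 9527+oil (0%), by edgeR, DESeq2 and voom. For oil, Plk1 and Ckap2l had a larger difference from saline in male mice at an unadjusted p under 0.05, against 1.03% of all genes. For 9527+oil this was Ckap2l alone, against 1.99%. With Corexit 9527 the male minus female difference of the log2 fold change ran from -0.56 (SE 1.30) for Aurkb to 1.11 (SE 0.67) for Ckap2l. Without the 4 libraries it ran from -0.24 for Racgap1 to 1.12 for Ckap2l, with Aurkb at -0.10. The calls in male mice therefore do not show a difference between the sexes.

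Other genes of the same machinery were taken from 10 lists with 106 symbols, of which 102 were measured. The core subunits of the APC showed small differences. With Corexit 9527 against saline in male mice, 0 of 14 core subunits passed the adjusted p or an unadjusted p of 0.05 by edgeR, and their median log2 fold change was 0.04. Of all genes 0.389% passed the former, and 7.97% were higher and 5.70% lower by the latter. The ESCRT proteins that cut the bridge between daughter cells, recruited by Cep55, behaved alike, with 0 of 11 by either threshold and a median of 0.00. Of these, the core subunits Anapc7 and Anapc13 had log2 fold changes of 0.22 (SE 0.13) and 0.06 (SE 0.14). The ESCRT subunit Chmp4b had 0.03 (SE 0.12), and Pdcd6ip, an adaptor of that machinery, had 0.15 (SE 0.10). The 4 polo-like kinases other than Plk1 had a median of 0.09, with 0 called, and among them Plk2 had 0.07 (SE 0.15) and Plk4, the kinase of centriole duplication, 0.71 (SE 0.43).

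The lists of mitotic proteins that follow had higher medians than these, though lower than the 1.53 of the 10 genes. No median is given for the list of APC partners, which holds cyclins A2 and B1. In male mice with Corexit 9527 the medians were 1.06 for 7 partners of the Aurora kinases, 1.19 for 13 other mitotic kinases and phosphatases, 1.34 for 12 spindle proteins, 1.20 for 11 proteins of the central spindle and furrow and 1.12 for 7 markers of proliferation, against -0.01 for all genes. Of all 102 measured genes of the lists, 3 were called, against 0.389% of all genes, a share that changes with single mice as for the 10 genes. They were Tpx2, the activator of Aurora A, at 1.62 (SE 0.24), and the spindle proteins Ckap2, at 1.75 (SE 0.29), and Spag5, at 1.53 (SE 0.25), each with an adjusted p of 0.0482 by edgeR. Ckap2 and Spag5 were picked out after their values were seen. Cyclin B1 (Ccnb1), a substrate of the APC, and Cdk1, the kinase it activates, had log2 fold changes of 1.88 (SE 0.34) and 1.94 (SE 0.33) and missed the threshold, with adjusted p of 0.0607 and 0.0548 by edgeR. Others that missed it were Incenp, the scaffold of the passenger complex, at 0.95 (SE 0.17), the spindle protein Dlgap5 at 1.79 (SE 0.32) and the kinase Mastl at 1.55 (SE 0.50).

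Between 9527+oil and Corexit 9527 over both sexes, 17 of the 102 genes were called, against 0.539% of all genes, and all 17 fell. Over all genes, leaving out 1 mouse moved the number called from 83 to between 0 and 1059. Among them, Ccnb1 fell by 1.79 (SE 0.23) on the log2 scale, with an adjusted p of 0.0199 by edgeR. Cdk1 fell by 1.78 (SE 0.27), Ccna2 (cyclin A2) by 1.69 (SE 0.25), and Kif11, the motor that separates the spindle poles, by 1.65 (SE 0.27). The central spindle proteins Kif20a and Prc1 fell by 1.59 (SE 0.24) and 1.31 (SE 0.23), and the proliferation markers Top2a and Mki67 by 1.55 (SE 0.24) and 1.47 (SE 0.24). Again 0 of 14 APC core subunits and 0 of 11 ESCRT proteins were called, with medians of -0.12 and -0.14. Of the 14 core subunits, 2 were lower at an unadjusted p under 0.05, against 8.59% of all genes.

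The transcription factor Foxm1 and the subunits of the DREAM and MuvB complexes, which bind promoters of G2 and M genes, moved less as a list. In male mice with Corexit 9527, 0 of 13 were called, against 0.389% of all genes, 4 exceeded saline with an unadjusted p under 0.05, against 7.97%, and the median was 0.23. Foxm1 itself had a log2 fold change of 1.31 (SE 0.24) and an adjusted p of 0.0673 by edgeR, and Lin9, a MuvB subunit, 0.40 (SE 0.23).

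Among the genes whose pattern over the 36 mice was most like the mean of the 10 genes were Asf1b, a histone chaperone of DNA replication, Kntc1, a protein of the kinetochore, Rfc5, a subunit of the clamp loader of replication, and Cdca3, a cell cycle protein. The measure was the root mean square of the differences in log2 CPM after centring each sex. It was 0.26 for Asf1b, 0.29 for Kntc1 and Rfc5 and 0.31 for Cdca3, against a median of 0.81 over the 4907 genes of a similar level. Among the 10 genes themselves it ran from 0.27 for Ube2c to 0.77 for Birc5, which has the library at 0 counts.

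Summed markers of some lung cell types differed between these groups. The 7 fibroblast markers summed to 2306 to 3077 CPM in female Corexit 9527 mice, against 1743 to 2175 CPM with saline and 1757 to 2276 CPM with 9527+oil. In male mice they summed to 3036 to 3538 CPM, against 2390 to 2683 CPM and 2350 to 2539 CPM, so that the Corexit 9527 mice stood above both groups in each sex, with 0 of 7 markers called by edgeR over both sexes. The summed level of 10 alveolar macrophage markers was 1423 to 2384 CPM in female Corexit 9527 mice, 826 to 965 CPM in female saline mice and 599 to 617 CPM in female 9527+oil mice. In male mice it was 1030 to 1880 CPM, 818 to 1057 CPM and 645 to 1035 CPM in the same groups. Of these 10 markers, 8 had a higher fitted level with Corexit 9527 than with saline over both sexes and 10 had a lower one with 9527+oil than with Corexit 9527, and 0 were called by edgeR in either comparison. The 5 club cell markers summed to 15480 to 19120 CPM in male Corexit 9527 mice, against 20520 to 25970 CPM with saline, and overlapped in female mice. All 7 endothelial markers had a lower fitted level with Corexit 9527 over both sexes, with a median log2 fold change of -0.30, and so did 6 of 6 erythroid markers, with a median of -0.74. Between 9527+oil and Corexit 9527, 7 of 7 endothelial, 6 of 6 erythroid and 8 of 8 neutrophil markers had a higher fitted level. Their medians were 0.44, 0.72 and 1.17, and again 0 were called. These marker comparisons over both sexes include the libraries of high mitochondrial share, female saline mouse 3 and female Corexit 9527 mouse 11. The markers were not examined without them. In male oil mice the markers of monocytes and interstitial macrophages summed to 641 to 853 CPM, against 414 to 494 CPM with saline. Those of neutrophils summed to 397 to 1096 CPM, against 309 to 350 CPM, and those of alveolar macrophages to 1142 to 1194 CPM, against 818 to 1057 CPM. Endothelial markers summed to 4602 to 4810 CPM in male oil mice and 4454 to 4699 CPM in male Corexit 9500 mice, against 4892 to 5466 CPM with saline, and mesothelial markers to 149 to 162 CPM in male oil mice, against 163 to 207 CPM. None of these groups overlapped saline, and 0 of these markers were called by edgeR. Among male mice, oil stood wholly above saline for 7.42% of all genes and wholly below for 5.38%. For Corexit 9500 these shares were 6.39% and 5.31%. For Corexit 9527 they were 10.7% and 9.48% in male mice and 2.85% and 1.17% in female mice. The sums named here were picked from those of more cell types, sexes and treatments. Markers of thymocytes, whose division could add such transcripts from adjacent thymus, summed to at most 18.7 CPM in any mouse. The part of any of these cell types in the levels of the 10 genes was not tested.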

How the data were processed

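Lung mRNA of 36 mice was sequenced with a stranded Illumina kit. The authors estimated reads per transcript with Salmon on the GRCm38 transcriptome and combined them with tximport. They deposited these expected counts, unnormalized and already whole numbers, in 1 table for each sex. Versions are not given in the sources used here. The methods name transcript identifiers, whereas the rows carry gene symbols, of which 24 in each table stand as dates, none of them a gene named here. Per table, 4 rows that shared a name with another row were left out (0.0103% and 0.0128% of the counts). The lowest sum of a row was 10.

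Samples were grouped by the treatment, sex and mouse number in the labels. No pair of libraries looked like 1 library entered again (lowest chi-square per gene 9.94). All columns were used. Each library came from the left lung of 1 mouse, so p-values measure the spread between these mice. Genes were tested with edgeR 4.0.16 in R 4.3.3 (quasi-likelihood F-test with robust estimation, TMM, filterByExpr, Benjamini-Hochberg over all genes tested, 2-sided), in the mice of the groups compared, with sex as a covariate where both sexes were pooled. A gene was called at an adjusted p under 0.05. The SE is the log2 fold change divided by the square root of F. The scripts were tested on simulated data. Alternatives were DESeq2 1.42.0, voom with quality weights (limma 3.58.1), other scalings and filters, a joint fit of all groups, each mouse left out, a fit lacking the sex term, no 4 high-mitochondrial libraries and, added after seeing the data, no robust estimation.

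The 10 genes and all lists were chosen with earlier results of these data known. Besides the 10 genes, the text names the 2 genes with the smallest p of each list in Corexit 9527 against saline over both sexes and the 5 genes of the most similar pattern, of which 1 is not reported here. Ckap2 and Spag5 were added after their values were seen. Genes were matched by symbol to GENCODE M21 for length and GC content. Levels in CPM were scaled within each table, so the report does not compare levels of female and male mice. Mice that stood apart were sought on levels scaled over all 36.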

Additional observations from a re-analysis of the deposited data

Results flagged for a closer look

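Single mice stood apart from the other 5 mice of their treatment in 6 of 60 combinations of gene and treatment, on log2 levels scaled over all 36 mice. The test was Dixon's gap over range with a critical value of 0.625, by which chance flags about 1 in 20 groups. Female saline mouse 3 was lowest for Aurka (1.41 CPM), Aurkb (0 CPM) and Birc5 (0 CPM). Female Corexit 9527 mouse 11 was lowest for Cdc20, at 0.852 CPM. Both libraries are among the 4 with a mitochondrial share over 20%. Female saline mouse 1 was highest for Ube2c, at 10.2 CPM, and male Corexit 9527 mouse 12 was lowest for Cep55, at 5.84 CPM.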

How the results depend on the processing

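No log2 fold change of the 10 genes with Corexit 9500 or Corexit 9527 against saline changed sign under any alternative. The number of the 10 genes called depended on the fit, and the cause was not tested. With Corexit 9527 over both sexes it was 0 as reported, 5 with DESeq2, 2 with at least 10 counts in every mouse, 10 with voom, 7 with all groups in one fit, 10 without the 4 high-mitochondrial libraries, 2 without robust estimation and 0 to 3 with 1 mouse left out. With Corexit 9527 in male mice it was 5 as reported, 9 with DESeq2, 8 with all groups in one fit, 3 without robust estimation and 0 to 10 with 1 mouse left out. With Corexit 9500 DESeq2 called 1 over both sexes and 5 in male mice, where 0 to 3 were called with 1 mouse left out, and with oil in male mice DESeq2 called 1. Between 9527+oil and Corexit 9527 it was 4 as reported, 8 with DESeq2, 10 with voom, 10 without the 4 libraries (of which these groups hold only female Corexit 9527 mouse 11) and 0 to 10 with 1 mouse left out. Other counts, including all 5 interactions, stayed within 1.5 times. Over all genes, 2 were called with Corexit 9527 over both sexes as reported, 127 with DESeq2, 779 with voom, 106 with all groups in one fit, 376 without the 4 libraries, 6 with at least 10 counts, 5 without robust estimation, 1 with no sex term and 0 to 9 with 1 mouse left out. In male mice 58 were called with it as reported, 587 with DESeq2, 139 with voom, 272 with all groups in one fit, 92 with no filter, 89 with at least 10 counts, 17 without robust estimation and 0 to 300 with 1 mouse left out. Between 9527+oil and Corexit 9527 the counts were 83, 629 with DESeq2, 1566 with voom, 159 with all groups in one fit, 1059 without that mouse and 0 to 1059 with 1 mouse left out. With oil in male mice DESeq2 called 186 genes against 1, and with Corexit 9500 in male mice 49 against 1. The other comparisons had 0 or 1 calls as reported, at most 51 with DESeq2, 96 with voom and 74 with 1 mouse left out. Female and male mice share numbers but are different animals that were treated separately, so the numbers pair no mice. With a replicate block on the number, 0 of 10 genes were called in each interaction. With 3 mice a group, differences of the 10 genes from saline carry an SE of up to 1.33 on the log2 scale.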
